A study of Mus musculus with 2 samples.

Results

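Imprinted genes are transcribed mainly from the copy inherited from 1 parent, and several imprinted domains also carry microRNA genes. Outside the large Dlk1-Dio3 domain, 5 mouse microRNA genes of this kind were chosen by name from the 2202 microRNA genes of the deposited tables. They were Mir298 and Mir296 beside Gnas, Mir335 in Mest, Mir483 in Igf2 and Mir675 in H19. The tissue was left cerebral cortex, taken from female mice of strain B6CASTF1/J aged 4 days, with small RNAs of under 30 bases sequenced from total RNA. B6CASTF1/J is a first-generation hybrid of a C57BL/6 and a castaneus parent. The labels gave 1 group of 2 biological replicates, 1 library per numbered animal, and the donor record was the same for both. No other genotype, age or treatment was part of the design, so no comparison between conditions was made. The tables hold 1 count per gene and library, in which reads from both parental copies are added up, and parental origin was not analysed here.

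A microRNA is cut from a hairpin in a longer transcript, and each arm of the hairpin can leave a mature RNA that guides Argonaute proteins to matching messenger RNAs. Bases 2 to 8 of the mature RNA, the seed, contribute most to target choice. At the Gnas locus the antisense transcript Nespas is made from the paternal copy. In most tissues Mest and Igf2 are also expressed paternally, whereas the noncoding RNA H19 is expressed maternally. In postnatal rodent brain, Igf2 is known chiefly from choroid plexus and meninges, where paternal expression is not assumed here.

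The 10 mature RNAs of the 5 genes are shown because their seeds and base composition set the genes apart from each other. All 5 genes were found by symbol in the RefSeq microRNA table (build GRCm38.p6, the same assembly as mm10), from which the sequences are taken, with the seed in capitals and written 5′ to 3′.
mmu-miR-298-5p: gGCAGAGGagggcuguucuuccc
mmu-miR-298-3p: gAGGAACUagccuucucucagcuu
mmu-miR-296-5p: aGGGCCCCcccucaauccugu
mmu-miR-296-3p: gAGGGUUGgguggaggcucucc
mmu-miR-335-5p: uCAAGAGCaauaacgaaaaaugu
mmu-miR-335-3p: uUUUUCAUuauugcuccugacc
mmu-miR-483-5p: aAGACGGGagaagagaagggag
mmu-miR-483-3p: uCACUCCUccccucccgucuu
mmu-miR-675-5p: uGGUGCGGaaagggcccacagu
mmu-miR-675-3p: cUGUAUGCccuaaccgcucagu

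These 10 mature RNAs carried 10 different seeds, and no seed was shared with another gene among the 1058 genes that have a mature RNA in that table. The 5 genes therefore formed no seed family, even where they lie side by side. Mature RNAs of Mir335 were poorest in G and C, with 30.4% in miR-335-5p and 36.4% in miR-335-3p. Those of Mir296 were richest, with 66.7% in miR-296-5p and 68.2% in miR-296-3p. The deposited count of a gene covers its whole hairpin, so that reads of the 5p and 3p arms cannot be told apart and no count belongs to a single sequence above.

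The hairpins of Mir298 and Mir296 are shown because the balance between these neighbours, described further on, differed between the animals, with the mature RNAs in capitals.
Mir298 hairpin: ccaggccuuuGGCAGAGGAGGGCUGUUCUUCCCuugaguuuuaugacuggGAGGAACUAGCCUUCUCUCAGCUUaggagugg
Mir296 hairpin: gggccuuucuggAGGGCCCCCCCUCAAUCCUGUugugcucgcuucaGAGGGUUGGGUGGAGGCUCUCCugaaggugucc

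Mir298 (ENSMUSG00000065410.1) lies on the minus strand at chr2:174267504-174267585 on mm10, and Mir296 (ENSMUSG00000065521.1) on the same strand at chr2:174267047-174267125, with 378 bases between them. In GENCODE annotation M21 neither gene lies inside another gene. The end of Nespas, transcribed in the same direction, is 13.7 kb upstream of Mir298, and Gnas, on the other strand, starts 16.7 kb away. Mir335 (ENSMUSG00000065501.1) lies on the plus strand at chr6:30741299-30741396, in an intron of all 7 Mest transcripts that span it, out of 11. Mir483 (ENSMUSG00000070140.1) lies on the minus strand at chr7:142654924-142654996, in an intron of all 7 Igf2 transcripts that span it, out of 9. Mir483 also lies in an intron of the 1 transcript of Gm49394, a second annotated protein-coding gene on the same strand. Mir675 (ENSMUSG00000076275.1) lies on the minus strand at chr7:142577064-142577147, 77.8 kb from Mir483. It is part of an exon in 3 of the 7 H19 transcripts and of an intron in 1.

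The hairpins are 73 to 98 bases long, and none of the 5 shares 22 or even 18 bases in a row with the hairpin of another gene in the tables. Sharing was searched on both strands, so a gene that overlaps a hairpin on the opposite strand also counts. Reads called ambiguous numbered 213069 in replicate 1 and 175822 in replicate 2 without regard to strand, and 0 on the annotated strand. Their predicted folding energies ran from -33.8 kcal/mol for Mir483 to -56.0 kcal/mol for Mir675. Per base they ran from -0.45 kcal/mol for Mir335 to -0.67 kcal/mol for Mir675, a value below which only 1.27% of the 2202 hairpins lay.

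Counts on the annotated strand summed to 3555469 in replicate 1 and 2761003 in replicate 2, and CPM below are counts per 1000000 of these sums. Where no read was found, as many as 3 counts remain possible, which is 0.844 CPM for replicate 1 and 1.09 CPM for replicate 2. Intervals and this limit cover counting error only. Reads mapped to several places, 41.0% to 45.8% of all reads, were assigned to no gene. Of 16 listed brain and neuron microRNAs, 12 (75%) reached 2 CPM in each library, against 20.4% of all 2202 genes. Mir124a-1, Mir124a-2, Mir124a-3 and Mir9-2 did not, with at most 10 reads in a library. Of the 16, 12 share 22 bases with another hairpin, so their counts are uncertain. Mir139, Mir149 and Mir137 led the list, which held 9.31% of counts in replicate 1 and 7.10% in replicate 2. Among its 12 genes with at least 100 summed reads, the median log2 ratio of replicate 1 over replicate 2 was 0.27. Mir138-1 (-0.81), Mir138-2 (-0.89) and Mir9-3 (-0.11) were higher in replicate 2. The animals differed in microRNAs of other cells. All 7 epithelial markers had reads and held 0.248% of counts in replicate 1 and 0.0361% in replicate 2. The 7 choroid plexus and ciliated cell markers, all with reads, held 0.523% and 0.279%. Of 4 listed red cell markers 3 were in the tables, all with reads, and held 0.00602% and 0.0550%, although Mir486 among them was higher in replicate 1 (log2 ratio 0.29, replicate 1 over replicate 2). Endothelial Mir126a held 1.28% and 1.97%. Of 6 mesenchymal markers 5 had reads, all but Mir199a-1, and the list held 0.370% and 0.429%. That sum followed Mir143 (log2 ratio -0.24), whereas Mir214 (0.28) and Mir145a (0.53) were higher in replicate 1. The part of these cells in the results below was not tested. In tissue, fewer cells of a type and less RNA per cell cannot be told apart.

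Mir298, Mir335 and Mir296 were among the abundant microRNAs of this cortex, Mir483 stood above the median of detected genes but far below these 3, and Mir675 was not above the limit of a count of 0. Together the 5 genes held 5.05% of counts in replicate 1 (95% Wilson interval 5.02 to 5.07) and 4.47% in replicate 2 (4.45 to 4.50), or 4.76% ± 0.405 (SD, n = 2). Of the 5, 4 reached 2 CPM in each library and are called detected, against 20.4% of all 2202 genes. The median level of the 4 detected genes was 8517 CPM, against 89.2 CPM over all 450 detected genes. These are descriptions, since the genes were chosen with earlier results of these data known.

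**Figure D1:**
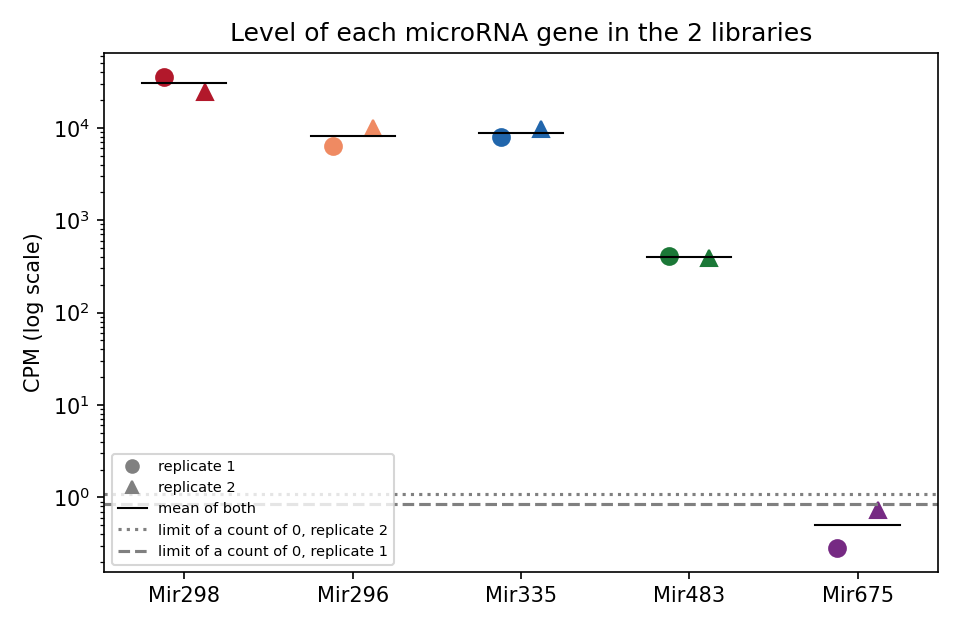
Level of each of the 5 genes in CPM on a log axis, with a circle for replicate 1, a triangle for replicate 2 and a line at their mean. The broken and dotted lines mark the limit that a count of 0 allows, 0.844 CPM in replicate 1 and 1.09 CPM in replicate 2. Mir675 lies below both lines, and the values of Mir296 and Mir335 overlap.

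Mir298, known in mouse cells as a repressor of Bace1, the enzyme that begins amyloid peptide production, was the most abundant of the 5. It had 127106 counts (35749 CPM) in replicate 1 and 67789 counts (24552 CPM) in replicate 2. It ranked 5th of all 2202 genes by mean CPM, with 3.02% ± 0.792 of counts, and was the 5th gene in replicate 1 and the 7th in replicate 2. It alone held 70.9% of the counts of the 5 genes in replicate 1 and 54.9% in replicate 2.

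Mir296, known from human endothelial cells for its part in angiogenesis, had 22567 counts (6347 CPM) in replicate 1 and 27531 counts (9971 CPM) in replicate 2. Its mean was 8159 ± 2563 CPM (SD, n = 2), which placed it 31st, while single libraries placed it 35th and 23rd. The nearby gene Gm27591, on the other strand and 19.1 kb from Mir296 on the side away from Gnas, had no read in either library. It shares 22 bases with 10 other hairpins, so its count is uncertain.

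Mir335, known in human breast cancer cells as a suppressor of metastasis, had 28255 counts (7947 CPM) in replicate 1 and 27068 counts (9804 CPM) in replicate 2, a mean of 8875 ± 1313 CPM (SD, n = 2) and rank 27. A single read lay on the opposite strand of its hairpin in replicate 1, and none did in replicate 2. The opposite strand of the other 4 genes had no read.

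The order of Mir335 and Mir296 was not settled by these libraries. The ratio of Mir335 to Mir296 counts was 1.25 in replicate 1 (exact Clopper-Pearson interval 1.23 to 1.27) and 0.983 in replicate 2 (0.967 to 1.00), so that Mir335 was ahead in only 1 of the 2 animals. A microRNA read normally covers a whole mature RNA, so counts were not divided by length in these ranks. Per 100 bases of hairpin, Mir298 stood at 36769 CPM, Mir296 at 10328 CPM, Mir335 at 9056 CPM and Mir483 at 546 CPM, which turned the order of Mir335 and Mir296.

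Mir483, known in human as an Igf2-locus microRNA that is overexpressed in Wilms tumour, had 1448 counts (407 CPM) in replicate 1 and 1075 counts (389 CPM) in replicate 2. Its mean of 398 ± 12.7 CPM (SD, n = 2) placed it 145th. Mir335 counts were 19.5 times those of Mir483 in replicate 1 (interval 18.5 to 20.6) and 25.2 times in replicate 2 (23.7 to 26.8). The gap between these levels was thus far wider than the spread of either gene between the animals.

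Mir675, known in mouse for limiting growth of the placenta, had 1 read in replicate 1 (exact Poisson interval 0.0253 to 5.57 counts) and 2 reads in replicate 2 (0.242 to 7.22 counts). Both values, 0.281 CPM and 0.724 CPM, lay under the limit of a count of 0, and no fold is given. Within the 2 microRNA genes of the H19 and Igf2 region, reads thus came almost wholly from Mir483, with 1448 of 1449 in replicate 1 and 1075 of 1077 in replicate 2.

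**Figure D2:**
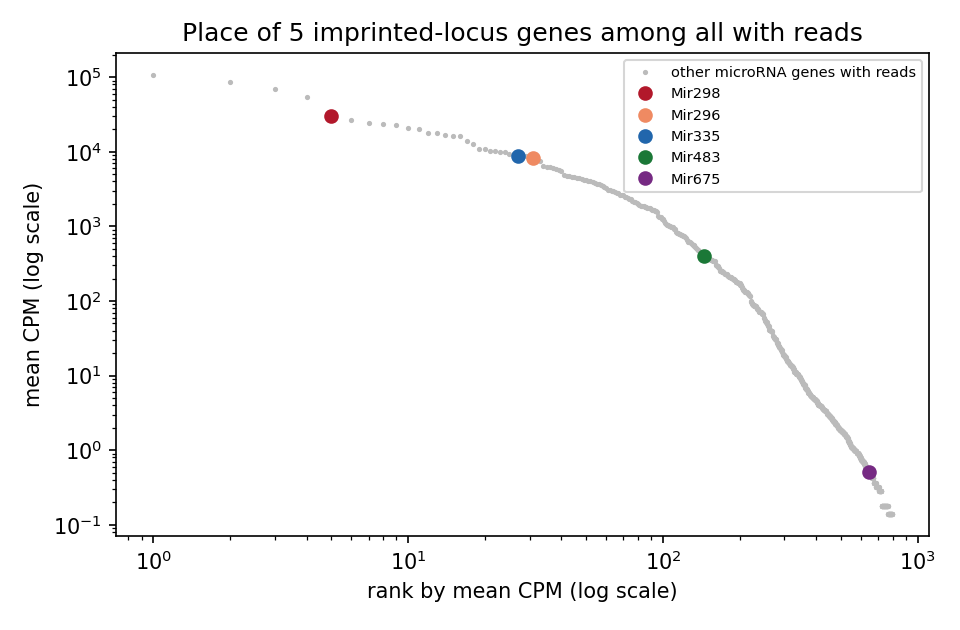
Mean CPM against rank by mean CPM, both on log axes, for microRNA genes with reads. Mir298 is at rank 5, Mir335 at 27, Mir296 at 31, Mir483 at 145 and Mir675 at 644, and the grey points are all other genes with a read.

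Genes of the most similar level were taken as the next above and below in rank, a likeness of mean CPM over 2 libraries. Mir298 stood between Mir99a (54007 ± 3093 CPM) and Mirlet7d (27036 ± 2902 CPM). Mir298 was ahead of Mirlet7d in replicate 1, with 35749 CPM against 24984 CPM, and behind it in replicate 2, with 24552 CPM against 29089 CPM. Mir335 stood between Mir151 (9372 ± 831 CPM) and Mir17 (8800 ± 1680 CPM), both within 5.60% of its level. Mir296 stood between Mir191 (8378 ± 547 CPM) and Mir342 (7758 ± 334 CPM), and these differed from it by less than its own spread. Mir191 shares 22 bases with another hairpin, in a search of both strands. It had 31165 and 22064 reads on the annotated strand and 0 without regard to strand. The sharing therefore need not mean a second copy elsewhere. Mir483 stood between Mir339 (412 ± 2.33 CPM) and epithelial Mir203 (395 ± 193 CPM). Mir675 tied with Mir19b-2 and Mir1907, which also had 1 and 2 reads.

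Between the animals, Mir298 was higher in replicate 1, Mir296 and Mir335 were higher in replicate 2, and Mir483 was nearly level. The log2 ratio of replicate 1 over replicate 2, scaled by the trimmed mean of M-values, was 0.56 for Mir298 (exact interval 0.55 to 0.57), or 1.47-fold higher in replicate 1. For Mir296 it was -0.63 (-0.66 to -0.61), or 1.55-fold higher in replicate 2. Mir335 had a log2 ratio of -0.29 (-0.31 to -0.26), or 1.22-fold higher in replicate 2. Mir483 had 0.08 (-0.03 to 0.20), an interval that spans 0. With 1 library per animal these differences have no test.

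None of the 4 genes with enough reads was 2-fold or more apart. Among all 308 genes whose counts summed to at least 100, 49 were (15.9%), with 11.0% of the 308 higher in replicate 1 and 4.87% higher in replicate 2. The median absolute log2 ratio over these genes was 0.33. A larger absolute ratio than that of Mir296 was found in 25.3% of them, than that of Mir298 in 32.8%, than that of Mir335 in 56.5% and than that of Mir483 in 90.6%. The biological coefficient of variation over 508 genes, from edgeR's common dispersion with an intercept only, was 0.406. Relative to their means, the SDs were 26.3% for Mir298, 31.4% for Mir296, 14.8% for Mir335 and 3.18% for Mir483. These SDs are per gene from 2 unscaled values, whereas the coefficient is 1 value common to 508 genes, so they are unlike measures. By absolute log2 ratio, Mir298 and Mir296 were above the median of 0.33, and Mir335 and Mir483 were below it.

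**Figure D3:**
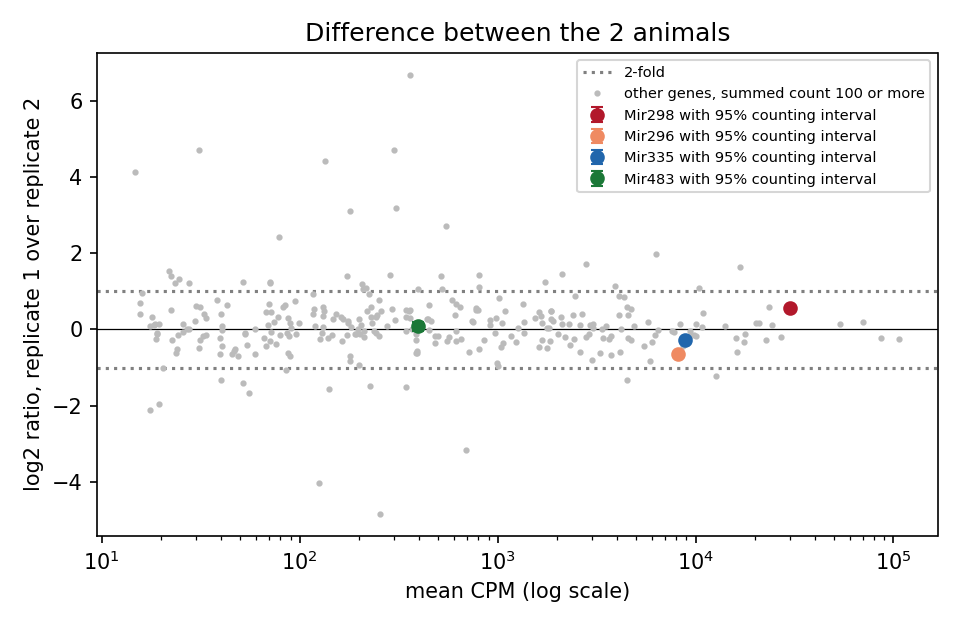
Log2 ratio of replicate 1 over replicate 2 against mean CPM on a log axis, for genes whose counts summed to at least 100, with 95% counting intervals on the 4 coloured genes that are mostly smaller than the points. Mir298 lies above 0 at 0.56, Mir335 and Mir296 below it at -0.29 and -0.63, and all 4 lie between the dotted 2-fold lines.

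Mir298 and Mir296 lie 378 bases apart on the same strand, yet differed between the animals in opposite directions. There were 5.63 Mir298 reads per Mir296 read in replicate 1 (exact interval 5.55 to 5.71) and 2.46 in replicate 2 (2.43 to 2.50), a mean of 4.05 ± 2.24 (SD, n = 2). This ratio is taken within a library, so scaling does not enter it. It was 2.29 times as large in replicate 1, a log2 difference of 1.19 (95% Woolf interval 1.17 to 1.22, counting error only). Added together, the 2 Gnas-side genes held 4.21% of counts in replicate 1 and 3.45% in replicate 2. The pair as a whole differed less than either gene, but a sum of genes with opposite directions must lie between them.

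This pair was compared with other neighbours after its values were seen. There were 99 pairs of consecutive microRNA genes on 1 strand, within 10 kb and each with at least 100 summed reads. Many of these pairs lie in the Dlk1-Dio3 domain on chromosome 12, and a gene can enter 2 pairs. The pairs are therefore not independent, and the shares below are weighted to that domain. Their log2 ratios differed by a median of 0.44 (quartiles 0.21 and 0.85), and in 53 pairs (53.5%) the ratios had opposite signs, so that opposite directions alone were common. A difference larger than the 1.19 of Mir298 and Mir296 was seen in 12 pairs. Among the 56 pairs with 1000 or more summed reads for each gene, 3 were larger (5.36%, against 12.1% of all pairs). Among the 57 pairs whose hairpins share no 22 bases with another, 4 were larger. Among the 13 pairs with 10000 or more summed reads for each gene, 1 was larger, Mir99b and Mirlet7e with 1.39. Mirlet7e shares 22 bases with another hairpin. It had 75779 and 52940 reads on the annotated strand and 0 without regard to strand. The sharing therefore need not mean a second copy elsewhere.

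**Figure D4:**
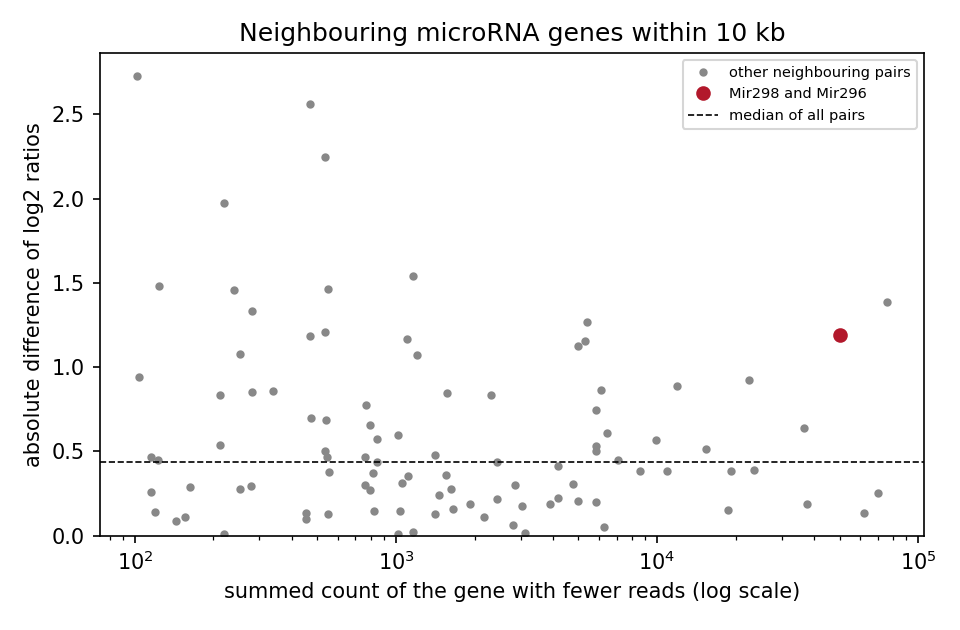
Absolute difference of the log2 ratios between the animals for 99 neighbouring pairs within 10 kb, against the summed count of the gene with fewer reads on a log axis. Mir298 and Mir296, in red, differ by 1.19, against a median of 0.44 over all pairs (dashed line), and among pairs with many reads 1 lies above them.

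Other imprinted microRNAs were described over lists set by position or symbol. The Dlk1-Dio3 domain on chromosome 12, whose microRNAs are made from the maternal copy, held 13.7% ± 0.349 of counts, and Mir127, Mir382 and Mir770 led it. Of its 67 genes 53 were detected (79.1%), against 20.4% of all 2202 genes. Among the 67, 19 share 22 bases with another hairpin in a search of both strands, so their counts may be uncertain. By mean level Mir298, at 30151 CPM, was ahead of Mir127, the leading gene of that domain. In replicate 1 Mir298 had 35749 CPM against 20400 CPM for Mir127, but in replicate 2 it had 24552 CPM against 25035 CPM, so the order differed between the animals. The median of detected genes was 8517 CPM for the 4 genes here and 616 CPM over 53 genes in the Dlk1-Dio3 domain. These medians rest on unlike selections, since the 4 come from genes chosen by name and the 53 from all genes within set limits. In that domain 4 of 48 genes (8.33%) were 2-fold or more apart between the animals, against 0 of 4 here and 15.9% of all 308 genes. A count over 4 genes is too small to be set against these shares. Of 119 microRNA genes inside Sfmbt2, a repeated cluster, 7 were detected, and all together held 0.236% ± 0.00925 of counts, led by Mir467d, Mir467e and Mir669c, but 117 of its genes share 22 bases with another hairpin and are uncertain. Mir489 and Mir653, in introns of the calcitonin receptor gene Calcr that is imprinted in mouse brain, had no read but 1 of Mir653 in replicate 2. Together these lists and the 5 genes held 19.2% of microRNA counts in replicate 1 and 18.2% in replicate 2. Whether each domain is imprinted in this cortex was not analysed.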

How the data were processed

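Small RNA libraries from 2 animals were analysed. Each deposited table holds raw counts of reads for every microRNA gene in 1 library, without pooling or normalization. Per the notes deposited beside the tables, the build was mm10 and the annotation M21. The aligner, counter, trimming and filters are not given in the sources used here. The 3 unnamed value columns were read as either strand, annotated strand and opposite strand, from their layout and values, and the annotated strand was used. Totals without a gene ID did not enter library sizes, and counted reads were 30.4% and 27.8% of all reads. All gene IDs matched annotation M21.

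CPM were computed here from the deposited counts. Log2 ratios used TMM factors of edgeR 4.0.16 with 0.5 added to each count, and exact Clopper-Pearson intervals. Folding energies came from ViennaRNA 2.7.2, on annotation transcripts. The ratio steps were tested on simulated data. Homogeneity of both tables was tested by chi-square over 525 genes (322 per degree of freedom), far from what 1 library deposited under 2 names would give. That they came from 2 animals rests on the labels. The 5 genes and the lists were chosen with earlier results of these data known. Named genes were the 5, the next gene above and below each by mean CPM, microRNA genes within 100 kb, Mir489 and Mir653, and the 3 leading genes of the Dlk1-Dio3 and Sfmbt2 lists. Outside this rule, some genes of the marker lists and those sharing bases 2 to 7 with the 5 genes were named after their values were seen. The pair of neighbours named beside Mir298 and Mir296 was chosen after its values were seen. Of the marker lists, those of microglia and leukocytes, liver and striated muscle held 0.114%, 0.0119% and 0.00372% of counts on average. Strand, denominator, scaling, added count, minimum counts and left-out replicates were varied.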

Additional observations from a re-analysis of the deposited data

How the results depend on the processing

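Of 74 alternative values, 63 stayed within the spread between replicates, the counting interval or 1.5 times a count, and no log2 ratio between the animals changed sign. For shares and for the ratio of Mir298 to Mir296, a single replicate always lies within the SD of 2 replicates. Those left-out values are among the 63 by arithmetic and say nothing on stability. The order of Mir335 and Mir296 did turn, from a ratio of 1.09 by CPM to 0.877 per 100 bases of hairpin, because the hairpin of Mir335 is longer. As a share of all reads of a library, unassigned reads included, the 5 genes held 1.39% instead of 4.76%, because the denominator is larger. With a minimum summed count of 20, 88 genes in place of 49 were 2-fold or more apart between the animals. That minimum takes in genes with fewer reads, and the number tested is not given here, so 88 cannot be read as a share. The number of detected genes among the 5 was 4 under strand-free counts, a minimum of 10 CPM and with either replicate left out. It was 5 where 1 read in both libraries was enough, a level at which Mir675 is within the limit of a count of 0. Without replicate 1 the ratio of Mir298 to Mir296 was 2.46 and without replicate 2 it was 5.63, so this value differs by library, and the summed share ranged from 4.47% to 5.05%. Over strand, scaling and added count, the log2 ratio ranged from 0.54 to 0.56 for Mir298, from -0.65 to -0.63 for Mir296, from -0.30 to -0.29 for Mir335 and from 0.06 to 0.08 for Mir483. The share of neighbouring pairs further apart than Mir298 and Mir296 was 12.1% over all pairs and 5.36% with 1000 or more summed reads per gene, and the cause was not tested. The comparison with neighbouring pairs and the values per hairpin length were added after seeing the data. No paired analysis was possible because the labels give a single group. With 2 animals the spread is itself poorly known.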

Other observations

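Bases 2 to 7, a shorter core of the seed, were shared more widely than whole seeds. Of the 10 mature RNAs, miR-296-5p shared them with miR-5621-3p, miR-335-5p with miR-7646-5p, miR-335-3p with miR-6986-3p and miR-483-3p with miR-3110-3p. The genes of these partners had few or no reads. Mir6986 had 42 reads in replicate 1 and 17 in replicate 2, and Mir5621 had 2 and 7. No read of Mir7646 or Mir3110 was found, so that levels of at most 0.844 CPM (replicate 1) and 1.09 CPM (replicate 2) remain possible.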
